A study of Homo sapiens with 6 samples.

Results

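Collagens are secreted or membrane-bound triple helices, laminins are cross-shaped trimers of an alpha, a beta and a gamma chain, and integrins are surface dimers of an alpha and a beta chain that bind both. Epithelial cells rest on a basement membrane whose sheet is built from laminin and type IV collagen, and they hold on to it through hemidesmosomes and focal adhesions. In carcinoma cells these genes are studied because attachment and spread both depend on them. The members are all genes of the count table whose symbols follow the naming of collagen chains (COL with 2 numbers), laminin chains (LAMA, LAMB and LAMC) and integrin alpha and beta chains (ITGA and ITGB). That gave 83 of 57445 gene rows: 44 collagens, 12 laminins and 27 integrin rows with 26 symbols, since ITGB3 has 2 rows.

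RNA was sequenced from H358 cells, a human lung cancer cell line of the non-small cell kind that grew out of a bronchioalveolar tumour, kept in RPMI with serum. There were 3 groups of 2 libraries: the clones C1 and C2, listed as isogenic and with the BRMS1v2 change A273V on both copies of BRMS1, and the parental cells with wild-type BRMS1 (WT). BRMS1 is a metastasis suppressor that works in a histone deacetylase co-repressor complex. Each mutant group is 1 clone. How the clones were made is not stated, and neither is whether replicates 1 and 2 were separate cultures. Thus p-values measure only the spread between these libraries, which may be technical.

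The libraries held 27527867 to 37146270 gene counts. All 10 lung epithelial markers exceeded 0.5 CPM (counts scaled to library size), with sums of 6275 to 8693 CPM per library. Of the fibroblast markers 1 of 10 did (LUM), of the endothelial 3 of 7 (VWF, KDR and CDH5), of the leukocyte 2 of 9, and of the platelet and erythroid 0 of 7. All 20 of 20 proliferation genes were lower in replicate 2 of C1, of C2 and of WT, beside 28.3% of all genes tested. They were listed because they had moved with the replicate number in an earlier analysis of these data, so this count is no separate support. The sums of the proliferation genes were 533 CPM in C1 replicate 2 and 3493 in replicate 1, 1279 and 4075 in C2, and 1404 and 3544 in WT. Because same-numbered libraries deviated together, results are also given with the replicate number as a block in the same edgeR fit, called blocked.

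H358 cells had high transcript levels of laminins and of the integrins that bind them, and much lower levels of collagens. The laminins summed to between 3407 and 4061 CPM per library, the integrins to between 2817 and 3504 CPM, and the collagens to between 581 and 736 CPM. At least 0.5 CPM on average in any group was reached by 26 of 44 collagens, 10 of 12 laminins and 18 of 27 integrin rows, and these 54 members are described. Of the other 29, 4 had no count in any library (COL5A3, COL22A1, ITGAD and the second ITGB3 row). The second ITGB3 row shares 2266 exonic bases with the first, so counts of ITGB3 are uncertain in so far as reads could belong to either. In the plot of levels by library, the points of a gene mostly lie close together beside the range between genes.

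**Figure D1:**
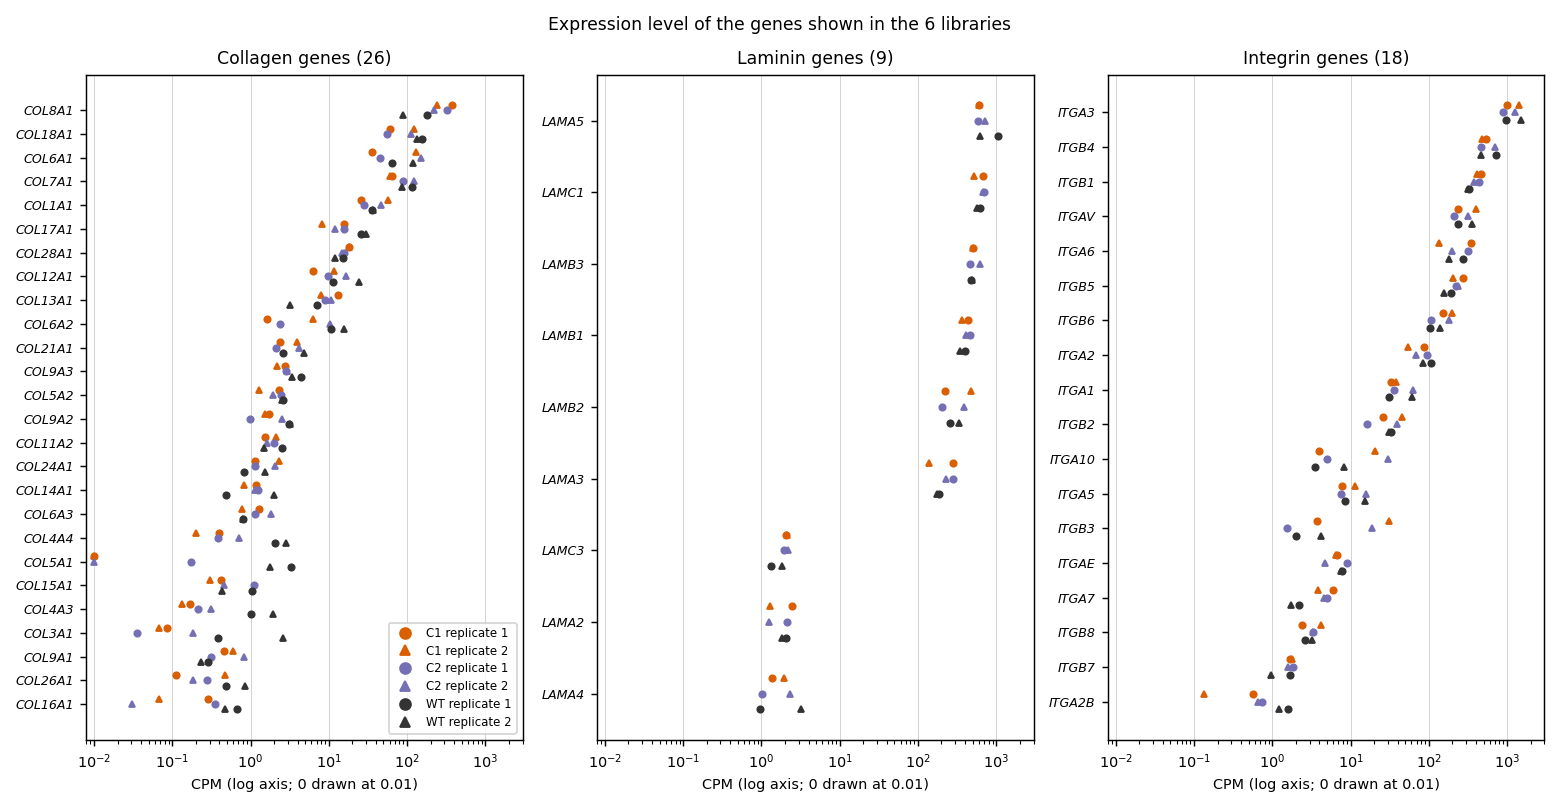
Level of 53 of the 54 described members in CPM on a log axis, 1 point per library (orange C1, purple C2, dark WT, circles replicate 1 and triangles replicate 2), with 0 drawn at 0.01. LAMA5, LAMC1, LAMB3, LAMB1, LAMB2 and LAMA3 lie far to the right of LAMC3, LAMA2 and LAMA4, while the collagens run from 0 to 380 CPM, and COL5A1, COL3A1, COL4A3 and COL4A4 have all 4 clone points left of both WT points.

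Type IV collagen is the network former of basement membranes. Its widespread form is a trimer of the COL4A1 and COL4A2 chains, and specialised membranes such as those of the kidney glomerulus and the lung alveolus carry a trimer of COL4A3, COL4A4 and COL4A5. In these cells COL4A1, COL4A2, COL4A5 and COL4A6 were close to silent, each with at most 3 counts in all 6 libraries together. COL4A3 and COL4A4 were the type IV chains above the level minimum. Both lie on chromosome 2, head to head on opposite strands. RefSeq promoter windows (GRCh38.p14, 300 bases around the start of the gene) are shown for this pair because both genes were lower in the clones and their windows overlap. The windows share 82 bases, in capitals, with starts 419 bases apart. This layout is not particular to the pair. COL4A1 and COL4A2 share 226 bases with starts 127 apart, and COL4A5 and COL4A6 share 121 with starts 380 apart. COL4A3 spans chr2:227164374-227164673 on the plus strand and COL4A4 chr2:227164156-227164455 on the minus strand, each printed 5′ to 3′ on its own strand.
COL4A3: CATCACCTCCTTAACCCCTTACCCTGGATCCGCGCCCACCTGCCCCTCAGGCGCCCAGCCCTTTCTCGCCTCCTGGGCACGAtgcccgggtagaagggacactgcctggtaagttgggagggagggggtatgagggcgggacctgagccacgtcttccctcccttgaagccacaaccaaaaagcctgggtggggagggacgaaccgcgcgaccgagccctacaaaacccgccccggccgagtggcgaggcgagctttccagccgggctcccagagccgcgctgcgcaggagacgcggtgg
COL4A4: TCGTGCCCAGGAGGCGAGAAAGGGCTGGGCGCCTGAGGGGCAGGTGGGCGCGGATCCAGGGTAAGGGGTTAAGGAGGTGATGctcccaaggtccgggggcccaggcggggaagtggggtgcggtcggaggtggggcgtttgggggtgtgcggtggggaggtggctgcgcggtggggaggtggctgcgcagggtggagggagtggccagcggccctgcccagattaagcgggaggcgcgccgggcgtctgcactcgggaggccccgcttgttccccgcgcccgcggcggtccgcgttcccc

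COL4A4 (ENSG00000081052.10) had 0.396 and 0.2 CPM in C1 replicates 1 and 2, 0.386 and 0.712 CPM in C2, and 2.05 and 2.86 CPM in WT. COL4A3 (ENSG00000169031.14) had 0.17 and 0.134 CPM in C1, 0.211 and 0.309 CPM in C2, and 1.02 and 1.92 CPM in WT. For both genes all clone libraries were below both WT libraries. With the block in edgeR, the log2 difference of COL4A4 was -2.96 in C1 (SE 0.46, adjusted p 0.00181) and -2.15 in C2 (SE 0.42, adjusted p 0.0112). That of COL4A3 was -3.17 in C1 (SE 0.51, adjusted p 0.00232) and -2.46 in C2 (SE 0.47, adjusted p 0.00916). Without the block neither passed (adjusted p 0.19 in C1 for both, 0.35 for COL4A3 and 0.40 for COL4A4 in C2). In the 6 blocked fits that each left out 1 library, COL4A4 in C1 ran from -3.86 (without C1 replicate 1) to -2.28 (without C1 replicate 2). In C2 it ran from -2.65 to -1.79. COL4A3 ran from -3.745 to -2.61 in C1, and in C2 from -2.77 to -2.04 (without WT replicate 2). For neither gene did every such fit keep the call, in C1 or in C2. Each of these fits leaves 1 library in a group. Counts were small, with 4 to 23 per clone library and 32 to 85 per WT library. COL4A3 shares 120 exonic bases with an antisense gene, AC097662.2, which held 137 counts against 115 for COL4A3, and the strand setting of the counting is not given. COL4A3 and COL4A4 share no exonic base with each other in GENCODE 29. The 10 nearest tested genes, 5 on each side and with AC097662.2 among them, had median blocked log2 differences of 0.05 in C1 and -0.03 in C2. Their range was -2.01 to 0.47 over both clones. Of these 10, 2 were called in C1 and 1 in C2, beside 7.03% and 4.54% of all genes tested.

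Among fibril-forming collagens, COL5A1 and COL3A1 were nearly absent from both clones. COL5A1 encodes the main chain of type V collagen, which starts fibrils and sets their width, and COL3A1 the single chain of type III collagen, found with type I in stretchable tissue. COL5A1 (ENSG00000130635.11, chromosome 9) had 0 and 0 counts in C1, 5 and 0 counts in C2, and 103 and 53 counts in WT. No clone library reached the WT range. Against a floor of 3 counts over the group, C1 was at least 55.7-fold lower than WT, with blocked adjusted p 0.000399 (0.22 without the block). In C2 the blocked log2 difference was -4.92 (SE 0.64, adjusted p 0.0016, and 0.40 without the block). It was -4.22 without C2 replicate 2 (adjusted p 0.205), -4.23 without WT replicate 2 (adjusted p 4.54e-06) and -7.90 without WT replicate 1 (adjusted p 9.93e-07), and without C2 replicate 1, which holds every count of C2, the adjusted p was 0.165. Its partner COL5A2 averaged 1.81 ± 0.76 CPM in C1, 2.17 ± 0.36 in C2 and 2.56 ± 0.05 in WT (SD, n = 2 each), with blocked log2 differences of -0.54 and -0.25 that did not pass. The 10 tested neighbours of COL5A1 held 0 genes called in either clone, beside 7.03% of all genes tested in C1 and 4.54% in C2.

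The promoter window of COL5A1 is shown because COL5A1 had the lowest level in the clones relative to WT of all members called. It spans chr9:134641553-134641852 on the plus strand (RefSeq, GRCh38.p14), and capitals mark both matches to GGGCGG, which lie on the minus strand and read CCGCCC here.
COL5A1: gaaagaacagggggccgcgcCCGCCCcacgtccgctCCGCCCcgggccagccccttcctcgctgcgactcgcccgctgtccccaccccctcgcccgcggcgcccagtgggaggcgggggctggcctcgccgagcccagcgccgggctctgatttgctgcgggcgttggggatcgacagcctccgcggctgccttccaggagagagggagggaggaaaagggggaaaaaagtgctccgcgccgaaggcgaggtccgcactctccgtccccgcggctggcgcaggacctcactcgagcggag

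The windows were searched for 3 motifs on both strands, with each position counted once and matches of different motifs counted separately. The motif GGGCGG, the core of the GC box, occurred in 22 of the 40 described members with a window and in 44.6% of 27305 windows. The TATA box letters TATAAA occurred in 5 of 40 windows and in 12% of all. The third motif, the AP-1 type letters TGANTCA, occurred in 2 of 40 (ITGA5 and LAMA3) and in 7.76% of all. A match is a run of letters and not a shown binding site.

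COL3A1 (ENSG00000168542.8, chromosome 2) had 3 and 2 counts in C1, 1 and 6 counts in C2, and 12 and 77 counts in WT. The WT libraries differed widely from each other and both exceeded every clone library. In CPM that was 0.076 ± 0.013 in C1, 0.110 ± 0.106 in C2 and 1.49 ± 1.56 in WT (SD, n = 2 each). The blocked log2 difference was -3.95 in C1 (SE 0.69, adjusted p 0.00368) and -3.62 in C2 (SE 0.65, adjusted p 0.00583), against 0.43 and 0.62 without the block. Its size rests on WT replicate 2: without that library the blocked value was -2.75 in C1 (adjusted p 0.0971) and -2.30 in C2 (adjusted p 0.227). In C1 it was -2.16 without C1 replicate 2 (adjusted p 0.198), -5.16 without C1 replicate 1 (adjusted p 1.23e-07) and -4.55 without WT replicate 1 (adjusted p 9.42e-07). COL1A1, the main chain of type I collagen, had 25.9 and 57.1 CPM in C1, 27.9 and 45.9 CPM in C2, and 35.4 and 36.8 CPM in WT, and the groups overlapped. Its partner COL1A2 had at most 2 counts in any library. COL1A1 did not pass in either clone, with blocked intervals of -0.44 to 0.61 in C1 and -0.56 to 0.48 in C2 on the log2 scale.

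The hemidesmosome and its anchoring fibrils bring COL17A1, COL7A1, the laminin chains LAMA3 and LAMB3, and the integrin chains ITGA6 and ITGB4 together. Of these, the transmembrane collagen COL17A1 was lower in both clones. COL17A1 (ENSG00000065618.12, chromosome 10) had 15.6 and 8.08 CPM in C1, 15.6 and 12.1 CPM in C2, and 26.1 and 29.5 CPM in WT, so all clone libraries were below both WT libraries. The blocked log2 difference was -1.29 in C1 (SE 0.25, adjusted p 0.011) and -1.04 in C2 (SE 0.25, adjusted p 0.0386), against 0.46 and 0.70 without the block. Without C1 replicate 2 the blocked value in C1 was -0.87 (adjusted p 0.0541), and without WT replicate 2 that in C2 was -0.59 (adjusted p 0.177). COL7A1, the anchoring fibril collagen, averaged 62.7 ± 3.02 CPM in C1, 106 ± 24.1 in C2 and 101 ± 20.1 in WT (SD, n = 2 each), with blocked log2 differences of -0.68 in C1 (adjusted p 0.0611) and 0.07 in C2 (adjusted p 0.885). The window of COL17A1 is shown as that of a gene called in both clones with a match to TATAAA, in capitals. The match begins at position -206 from the start of the gene. The window spans chr10:104085831-104086130 on the minus strand (RefSeq, GRCh38.p14).
COL17A1: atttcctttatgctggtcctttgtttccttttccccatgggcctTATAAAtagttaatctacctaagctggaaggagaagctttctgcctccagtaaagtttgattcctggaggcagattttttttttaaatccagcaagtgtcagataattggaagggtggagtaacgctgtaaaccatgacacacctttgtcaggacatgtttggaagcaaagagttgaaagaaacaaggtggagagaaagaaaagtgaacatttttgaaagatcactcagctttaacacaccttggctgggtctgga

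Type VI collagen forms beaded filaments from 1 chain each of COL6A1, COL6A2 and COL6A3. Of the 3 chains COL6A2 alone was called against WT, in C1 and for the mean of the clones. The chains were not tested against each other. COL6A2 (ENSG00000142173.10, chromosome 21) had 1.61 and 6.35 CPM in C1, 2.35 and 10.5 CPM in C2, and 10.7 and 15.6 CPM in WT, and all clone libraries were below both WT libraries. Its blocked log2 difference was -2.04 in C1 (SE 0.39, adjusted p 0.0161) and -1.37 in C2 (SE 0.38, adjusted p 0.082), against 0.72 and 0.93 without the block. The size in C1 depends on WT: it was -1.26 without WT replicate 1 (adjusted p 0.00189) and -2.79 without WT replicate 2 (adjusted p 1.04e-10). COL6A1, its neighbour on chromosome 21, had 35.8 and 129 CPM in C1, 45.2 and 150 CPM in C2, and 64.9 and 118 CPM in WT, where the groups overlapped and replicate 2 was the higher in each. The blocked interval was -0.89 to 0.12 for C1, and for C2 it was -0.62 to 0.39. COL6A3 averaged 1.03 ± 0.38 CPM in C1, 1.49 ± 0.47 in C2 and 0.804 ± 0.006 in WT (SD, n = 2 each) and did not pass.

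Averaged over libraries, COL8A1 was the collagen with the highest level, and it was higher in both clones. It encodes the alpha 1 chain of type VIII, a short-chain collagen that forms hexagonal nets beneath the corneal endothelium and is also made in vessel walls. COL8A1 (ENSG00000144810.11, chromosome 3) had 380 and 244 CPM in C1, 320 and 220.0 CPM in C2, and 180 and 87.6 CPM in WT. Every clone library was above both WT libraries, and within each group replicate 1 was the higher. The blocked log2 difference was 1.27 in C1 (SE 0.16, adjusted p 0.000345) and 1.08 in C2 (SE 0.16, adjusted p 0.00159), against 0.55 and 0.73 without the block. Within replicate 1 the difference of log2(CPM + 0.1) was 1.08 in C1 and 0.835 in C2, and within replicate 2 it was 1.48 and 1.33. Averaged over libraries COL8A1 had 25.4 CPM per kilobase of exons, ahead of COL6A1 with 16.9 and COL18A1 with 12.6. In WT alone COL18A1 was ahead of COL8A1, with means of 146 and 134 CPM. Per kilobase COL8A1 had 14.2 CPM in WT, behind COL6A1 with 17.2 and COL18A1 with 17.1. The partner chain of COL8A1, COL8A2, stayed under the level minimum.

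COL12A1 and COL13A1 were the other collagens called. COL12A1, a FACIT collagen that decorates the surface of fibrils, had 6.22 and 11.5 CPM in C1, 9.79 and 16.6 CPM in C2, and 11.2 and 24.5 CPM in WT. The groups overlapped, but within each replicate number both clones were below WT. Its blocked log2 difference was -0.97 in C1 (SE 0.21, adjusted p 0.0158, and 0.72 without the block) and -0.38 in C2 (adjusted p 0.36). The call in C1 was lost without C1 replicate 2 (adjusted p 0.0636) or WT replicate 2 (adjusted p 0.0555). COL13A1, a transmembrane collagen of adhesion sites, had 13.3 and 7.98 CPM in C1, 8.95 and 10.8 CPM in C2, and 7.04 and 3.20 CPM in WT, with every clone library above both WT libraries. It was called for the mean of the clones (blocked log2 difference 1.07, SE 0.28, adjusted p 0.0375, and 0.50 without the block) and in neither clone alone. Without WT replicate 2 that value was 0.66 (adjusted p 0.156). COL18A1, the basement membrane collagen whose end fragment is endostatin, had 61.1 and 124 CPM in C1, 55.7 and 111 CPM in C2, and 157 and 135 CPM in WT. Both clones lay below WT, and the gene did not pass (blocked log2 difference -0.78 in C1, adjusted p 0.27, and -0.93 in C2, adjusted p 0.22). COL18A1 shares 1401 exonic bases with SLC19A1 on the other strand.

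**Figure D2:**
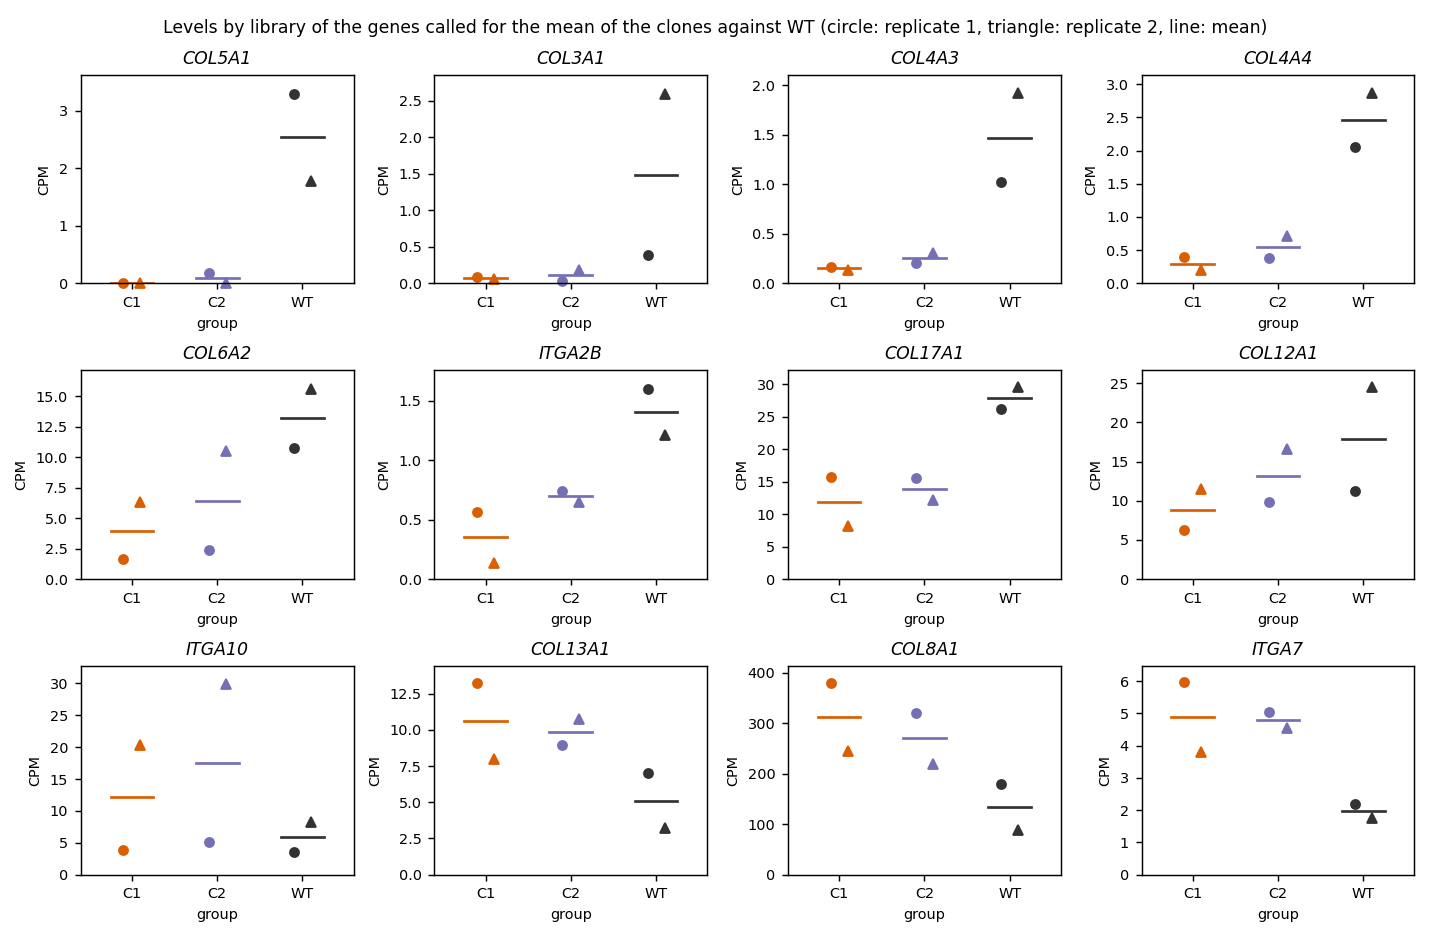
CPM in each library (circle replicate 1, triangle replicate 2, line the mean of 2 libraries) of the 12 members called with the block for the mean of C1 and C2 against WT, each panel with its own axis from 0. COL5A1 is at 0 in both C1 libraries and in C2 replicate 2, and COL8A1 and ITGA7 lie above WT in all 4 clone libraries.

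With the block, most members called against WT in each clone were collagens with lower levels in the clone. Some of these entered the test through WT alone, as named below. Without the block edgeR called 0 of 56 tested members in C1 (0.0117% of all genes tested were called) and 0 in C2 (0.0117%). At an unadjusted p under 0.05 there were 9 members in C1 and 7 in C2, beside 1348 and 1156 of the 17129 genes tested. DESeq2 called 3 and 1 members. With the block 10 members were called in C1, 2 higher and 8 lower, beside 7.03% of all genes (2.96% higher and 4.07% lower). In C2 with the block 7 were called, 2 higher and 5 lower, beside 4.54% of all genes (1.94% higher and 2.59% lower). For the mean of the clones the block gave 12 calls, 4 higher and 8 lower, beside 9.74% (4.12% and 5.63%). Without it there were 0, beside 0.198% (0.0234% higher and 0.175% lower). Also without it, 9 members had an unadjusted p under 0.05, beside 1677 of the 17129 genes tested, and DESeq2 called 5 members. By share of tested genes the members called lower in C1 were 7 of 26 collagens, 0 of 10 laminins and 1 of 20 integrins. Of the 7 collagens, COL5A1, COL3A1 and COL4A3 passed the filter on low counts only through WT, where they are high. They are also among the 5 called lower in C2. These shares therefore cannot be used to compare the families. Leaving out either C2 library reduced the blocked calls to 2 in C1, to 0 in C2 and to 2 for the mean of the clones, with fewer residual degrees of freedom in each fit.

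The unblocked median log2 difference of the 26 tested collagens was -0.66 in C1 and -0.24 in C2, beside -0.01 and 0.01 over all genes tested. In C1 19 of the 26 had a negative sign and in C2 16 did. Of the 56 tested members, 13 had all 4 clone libraries below both WT libraries (23.2%, beside 11.9% of all genes tested). These were ITGA2B and 12 of 26 collagens: COL4A3, COL4A4, COL5A1, COL5A2, COL3A1, COL6A2, COL9A2, COL9A3, COL16A1, COL17A1, COL18A1 and COL26A1. The opposite order held for 7 members (12.5%), close to the 11.9% of all genes tested. These were COL8A1, COL13A1, COL9A1, LAMC3, ITGB5, ITGA7 and ITGB1. Some of the 26 tested collagens, among them COL5A1, COL3A1 and COL4A3, passed the filter on low counts through WT alone, which favours lower values in the clones. The calls, counts and medians over the 26 therefore describe them and not all collagens, and both clones are compared with the same WT libraries. Of the called collagens, COL5A1, COL3A1, COL4A3 and COL4A4 had WT means under 3 CPM. The summed collagen level was 639 and 684 CPM in C1, 608 and 736 CPM in C2, and 650 and 581 CPM in WT. The groups overlapped in this sum, in which COL8A1 weighed most on average over libraries. In bulk RNA, fewer cells with a transcript and less of it per cell cannot be told apart. The fibroblast marker LUM accounted for most of the fibroblast sum, which was 13.7 and 13.4 CPM in C1, 17.3 and 25.1 CPM in C2, and 14.6 and 23.4 CPM in WT, and its part in the collagen values was not tested. The endothelial markers summed to 18.5 and 42.3 CPM in C1, 16.6 and 26.1 CPM in C2, and 9.88 and 21.4 CPM in WT, so that both clones were above WT within each replicate number. KDR had the highest level among them, and their part in the values of genes also made in vessels, such as COL8A1 and LAMA4, was not tested.

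**Figure D3:**
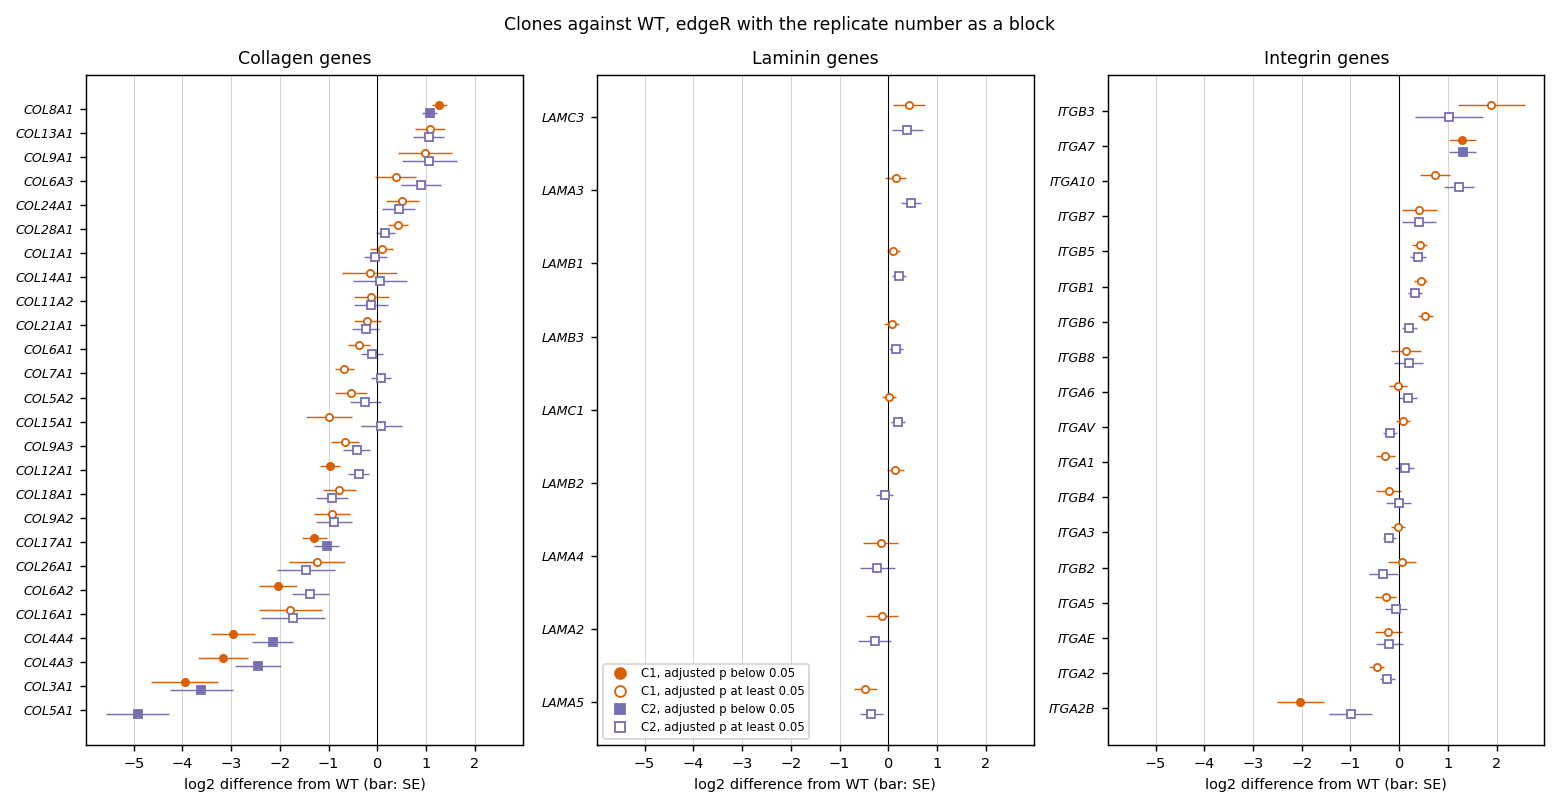
Blocked log2 difference from WT with its SE for 53 of the 54 described members, C1 as orange circles and C2 as purple squares, filled where the adjusted p in edgeR was below 0.05. C1 has no point for COL5A1, because it had 0 counts there. The collagens reach -4.92, the laminins shown stay between -0.47 and 0.47 in both clones, and ITGA7 and COL8A1 are filled on the right in both clones.

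Laminins differed little between the clones and WT. LAMA3 and LAMB3 are chains of the laminin that anchors hemidesmosomes, and LAMA5 joins LAMB1 or LAMB2 and LAMC1 in the common laminins of adult basement membranes. LAMB3 had 509 and 506 CPM in C1, 467 and 619 CPM in C2, and 480.0 and 489 CPM in WT. LAMC1 had 681 and 528.5 CPM in C1, 693 and 672 CPM in C2, and 627 and 563 CPM in WT. LAMB3 was above both WT libraries in C1 and overlapped WT in C2, and LAMC1 overlapped WT in C1 and was above it in C2.

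Per kilobase of exons LAMB3 had 109 CPM and LAMC1 74.6 on average, and the alpha chain LAMA3 14.6. Blocked log2 differences over the 10 tested laminins ran from -0.47 (LAMA5) to 0.42 (LAMC3) in C1 and from -0.35 (LAMA5) to 0.47 (LAMA3) in C2. None passed edgeR with or without the block, and 0 had an unadjusted p under 0.05 in either fit. Intervals bound these values rather than show equality: the blocked interval of LAMA5 was -1.01 to 0.06 in C1 and -0.89 to 0.19 in C2. LAMA5 averaged 602 ± 0.38 CPM in C1, 650.1 ± 94.4 in C2 and 846 ± 312 in WT (SD, n = 2 each). LAMC3 was the laminin with every clone library above both WT libraries, between 1.93 and 2.20 CPM in the clones, against 1.31 and 1.85 CPM in WT. That order held for 1 of 10 laminins, beside 11.9% of all genes tested. The low chains LAMA2 and LAMA4 lay at or under 3.16 CPM in every library, and LAMA1 and LAMB4 had at most 3 counts in any.

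The integrin chains with the highest levels were those that bind laminin. ITGA3, which pairs with ITGB1 and binds laminins with the LAMA3 or LAMA5 chain, had 992 and 1402 CPM in C1, 877 and 1251 CPM in C2, and 958 and 1508 CPM in WT. ITGB4, the hemidesmosome chain that pairs with ITGA6, had 539 and 477 CPM in C1, 469 and 698 CPM in C2, and 713 and 470.2 CPM in WT. ITGB1, the partner of most alpha chains here, had 468 and 408 CPM in C1, 434 and 375.5 CPM in C2, and 331 and 314 CPM in WT. Groups overlapped for ITGA3 and ITGB4, and every clone library was above both WT libraries for ITGB1, as for 11.9% of all genes tested. Per kilobase these chains had 119, 83.0 and 64.6 CPM. The blocked log2 difference of ITGB1 was 0.44 in C1 (SE 0.14, adjusted p 0.075) and 0.32 in C2 (SE 0.14, adjusted p 0.21), and neither passed.

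ITGA7, a laminin-binding partner of ITGB1 best known from muscle, was the integrin called higher in both clones. ITGA7 (ENSG00000135424.11, chromosome 12) had 5.96 and 3.81 CPM in C1, 5.05 and 4.55 CPM in C2, and 2.17 and 1.75 CPM in WT. Every clone library was above both WT libraries. The blocked log2 difference was 1.30 in C1 (SE 0.28, adjusted p 0.0154) and 1.30 in C2 (SE 0.28, adjusted p 0.0208), against 0.42 and 0.51 without the block. Without C1 replicate 1 the call in C1 was lost (adjusted p 0.0791). The 10 nearest tested genes had median blocked log2 differences of 0.61 in C1 and 0.65 in C2, over a range of -0.66 to 1.74 over both clones. Of these 10, 2 were called in C1 and 4 in C2, beside 7.03% and 4.54% of all genes tested. ITGA7 also shares 44 exonic bases with METTL7B on the other strand, which held 1612 counts against 736 for ITGA7. Since the strand setting of the counting is not given, it is not known whether reads of both were told apart there.

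ITGA2B, known as the alpha chain of the platelet fibrinogen receptor, was the integrin called lower. It had 0.565 and 0.134 CPM in C1, 0.737 and 0.650 CPM in C2, and 1.6 and 1.21 CPM in WT, with all clone libraries below both WT libraries. Its blocked log2 difference was -2.03 in C1 (SE 0.48, adjusted p 0.0216, and 0.55 without the block) and -1.0 in C2 (SE 0.44, adjusted p 0.23). The value in C1 was -1.44 without C1 replicate 2 (adjusted p 0.109) and -3.18 without C1 replicate 1 (adjusted p 0.000946). None of the platelet and erythroid markers reached 0.5 CPM. ITGA10, a collagen receptor chain of cartilage, had 3.93 and 20.3 CPM in C1, 5.05 and 29.9 CPM in C2, and 3.49 and 8.28 CPM in WT. The groups overlapped, and in both replicate numbers both clones were above WT. It was called for the mean of the clones (blocked log2 difference 0.98, SE 0.28, adjusted p 0.0484, and 0.76 without the block) and in neither clone alone, with adjusted p 0.19 in C1 and 0.0501 in C2. The value for the mean was 0.36 without WT replicate 2 (adjusted p 0.51) and 1.58 without WT replicate 1 (adjusted p 1.77e-06). The collagen receptor chains ITGA1 and ITGA2 had blocked log2 differences of -0.28 and -0.46 in C1 and 0.12 and -0.25 in C2, and neither passed.

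The alpha V dimers bind the arginine-glycine-aspartate motif of fibronectin, vitronectin and latent TGF-beta through a choice of beta chains. ITGAV had 233 and 403 CPM in C1, 207 and 314 CPM in C2, and 234 and 361.5 CPM in WT, and the groups overlapped. Of its partners ITGB5 averaged 237 ± 50.5 CPM in C1, 227 ± 9.19 in C2 and 176 ± 26.3 in WT (SD, n = 2 each), with every clone library above both WT libraries and blocked adjusted p 0.13 in C1 and 0.19 in C2. ITGB6, the epithelial partner, averaged 176 ± 31.9 CPM in C1, 144 ± 53.7 in C2 and 122 ± 24.3 in WT (SD, n = 2 each), with a blocked log2 difference of 0.54 in C1 (adjusted p 0.0519) and 0.21 in C2 (adjusted p 0.51). ITGB3 had 3.73 and 30.6 CPM in C1, 1.54 and 18.8 CPM in C2, and 2.01 and 4.21 CPM in WT. Its difference from WT did not pass. The blocked interval ran over 0.03 to 3.76 for C1 and over -0.87 to 2.93 for C2, before any adjustment for testing many genes. Integrin chains best known from leukocytes fell on both sides of the level minimum. ITGA4, ITGAM and ITGAX were under it. ITGB2 was above it, with 25.8 and 45.0 CPM in C1, 16.4 and 39.6 CPM in C2, and 32.7 and 30.8 CPM in WT, and so were ITGAE, at 7.07 CPM on average over libraries, and ITGB7, at 1.6 CPM. None of ITGB2, ITGAE and ITGB7 passed in either clone, and each shares exonic bases with a gene on the other strand (ITGB7 1886 with ZNF740, which held 24165 counts against 299 for ITGB7).

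No member was called between the clones with all 6 libraries. For C2 against C1 edgeR called 0 members without the block and 0 with it, beside 0% of all genes, and DESeq2 called 0. At an unadjusted p under 0.05 there was 1 member without the block (COL7A1), beside 61 of the 17129 genes tested. With the block there were 4 (COL7A1, COL12A1, COL15A1 and COL5A1), beside 642 of all genes tested. COL7A1 had the smallest p: 88.8 and 123 CPM in C2, against 64.8 and 60.6 CPM in C1, a log2 difference of 0.76 with the block (SE 0.20, adjusted p 0.774) and 0.75 without it (SE 0.24, adjusted p 1). No C2 library overlapped the C1 libraries for this gene. These genes were singled out after their values were seen. The calls in C1 but not in C2, such as COL6A2, COL12A1 and ITGA2B, are therefore not shown to differ between the clones.

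Replicate number went with more members than clone did. Between replicate 2 and replicate 1, tested within groups, edgeR called 21 of 56 members, 17 higher and 4 lower in replicate 2, beside 24.7% of all genes (12.5% higher and 12.2% lower). By family these were 7 collagens higher and 1 lower, 2 laminins higher and 0 lower, and 8 integrins higher and 3 lower. Signs over the 56 were even, 28 positive and 28 negative, with a median log2 difference of 0.07. Replicate 2 was above replicate 1 in all 3 groups for 18 members (32.1%) and below for 16 (28.6%). Over all genes tested these shares were 28.1% and 28.3%. Of the 10 laminins, 3 were above in all groups and 4 below (LAMA3, LAMB1, LAMC1 and LAMA2). The labels do not say what the number marks. The proliferation genes listed above moved with it in all groups, and their part in these values was not tested.

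Matrix genes higher in replicate 2 included COL6A1 and COL6A2 of type VI collagen. COL6A1, with the values given above, had a log2 difference of 1.48 (SE 0.19, adjusted p 0.000569) and COL6A2 of 1.5 (SE 0.32, adjusted p 0.00888). COL3A1 had 2.22 (SE 0.57, adjusted p 0.0124), which rests on WT: without WT replicate 1 or 2 it was 0.94 (adjusted p 0.492 and 0.545). COL12A1 (0.93), the fibrillar COL24A1 (0.91), the FACIT collagen COL21A1 (0.85) and COL1A1 (0.64) were also higher. COL21A1 had 3.91 CPM in C1 replicate 2 and 2.37 in replicate 1, 4.12 and 2.14 in C2, and 4.78 and 2.59 in WT. COL24A1 had 2.30 CPM in C1 replicate 2 and 1.13 in replicate 1, 2.04 and 1.16 in C2, and 1.55 and 0.831 in WT. COL8A1 went the other way, with a log2 difference of -0.74 (SE 0.13, adjusted p 0.00113). Among laminins LAMB2 had 475 CPM in C1 replicate 2 and 223 in replicate 1, 384 and 206 in C2, and 335 and 256 in WT (log2 difference 0.79, SE 0.14, adjusted p 0.00176). LAMA4, an alpha chain of vessel basement membranes, had 1.94 and 1.36 CPM in C1, 2.35 and 1.02 in C2, and 3.16 and 0.959 in WT in the same order (1.14, SE 0.30, adjusted p 0.0142). The summed endothelial markers given above were also higher in replicate 2 of every group, but 1 of the 7 was lower in replicate 2 of every group. Only 3 of the 7 reached 0.5 CPM, with KDR highest at a group mean of up to 26.7 CPM. Their part in the values of LAMA4 was not tested. In the 3 groups alike, replicate 2 was the higher for each of COL21A1, COL24A1, LAMB2 and LAMA4.

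Of the 20 tested integrins, 8 were higher in replicate 2 and 3 lower. ITGB3, partner of ITGAV and ITGA2B, had the widest gap, with 915 counts in C1 replicate 2 and 132 in replicate 1, 608 and 44 in C2, and 125 and 63 in WT. Its log2 difference was 2.62 (SE 0.56, adjusted p 0.0389), and without either WT library it was 3.28. Within groups it was 3.0, 3.52 and 1.03 on the log2(CPM + 0.1) scale in C1, C2 and WT. ITGA10 had a log2 difference of 2.08 (SE 0.25, adjusted p 0.000247). The fibronectin receptor chain ITGA5 had 11.5 CPM in C1 replicate 2 and 7.74 in replicate 1, 15.9 and 7.51 in C2, and 15.3 and 8.57 in WT (0.83, SE 0.18, adjusted p 0.00587). ITGAV (0.67), ITGA1 (0.66), ITGA3 (0.55) and ITGB6 (0.52) were higher as well, and so was ITGA9, which is under the level minimum.

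Lower in replicate 2 were ITGA6, ITGA2 and the leukocyte chain ITGAL, which is under the level minimum. ITGA6, the laminin-binding partner of ITGB4, had 136 CPM in C1 replicate 2 and 346 in replicate 1, 199 and 321 in C2, and 179 and 276 in WT. Replicate 2 was the lower in each group, and the log2 difference was -0.89 (SE 0.15, adjusted p 0.00121). ITGA2, a collagen receptor chain, had -0.50 (SE 0.13, adjusted p 0.0121). ITGA1 shares exonic bases with PELO on the same strand. Calls between replicate numbers fell to 2 members without C2 replicate 1 (COL6A1 and ITGA10) and to 5 without C2 replicate 2 (with COL8A1, ITGA6 and ITGAV). Those of COL1A1, COL24A1 and ITGA2 were also lost without either C1 library.

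**Figure D4:**
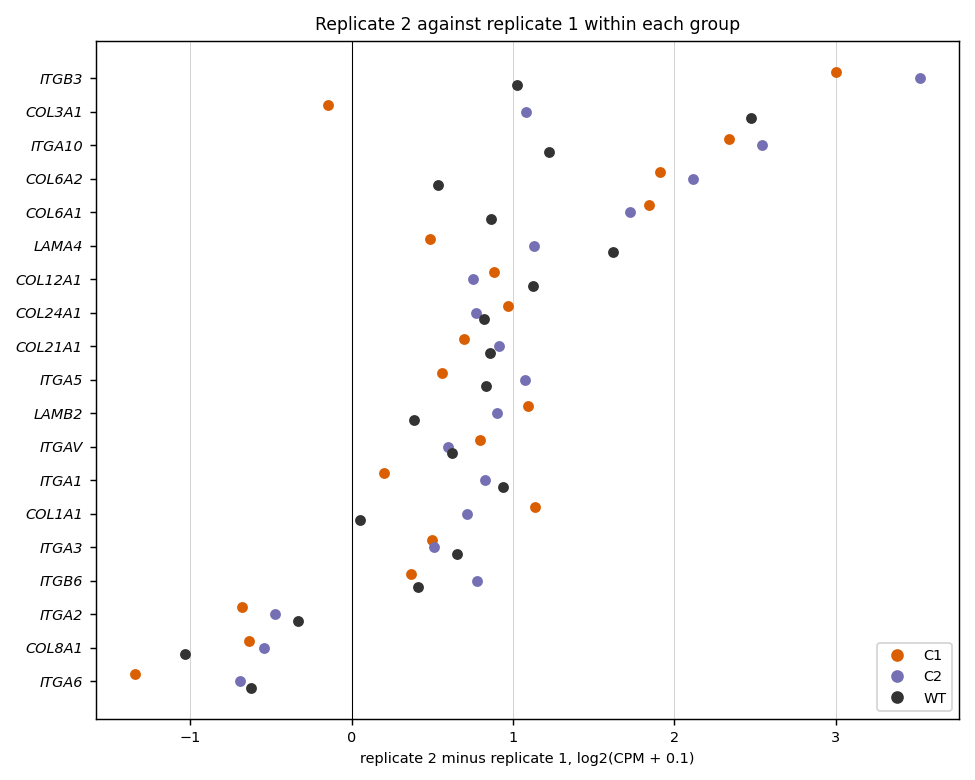
Replicate 2 minus replicate 1 as a difference of log2(CPM + 0.1) within C1 (orange), C2 (purple) and WT (dark), for the 19 described members called between replicate numbers. All points lie on one side of 0 for each gene except COL3A1, whose C1 point is at -0.15, and ITGB3 has the largest gaps in C1 and C2.

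Among enzymes that build and crosslink collagen, more were called lower than higher in each clone. With the block, 1 of 28 tested genes of this list was higher and 5 lower in C1 (beside 2.96% and 4.07% of all genes tested), and 1 was higher and 4 lower in C2 (beside 1.94% and 2.59%), with 0 called without the block in either clone. All genes leaned lower as well. The list's unblocked median was -0.09 in C1 and 0.05 in C2. LEPREL2 (P3H3), a collagen prolyl hydroxylase family member, had 0.820 and 3.11 CPM in C1, 1.16 and 3.84 CPM in C2, and 14.7 and 14.4 CPM in WT, and all clone libraries were below both WT libraries. Its blocked log2 difference was -3.17 in C1 (adjusted p 0.0104) and -2.79 in C2 (adjusted p 0.0212). The lysyl oxidase family member LOXL4, which crosslinks collagen, had -1.67 and -2.16 (adjusted p 0.0151 and 0.00643). It also had a log2 difference of 3.20 between replicate 2 and replicate 1. LEPREL1 (P3H2) was lower in C1 (-0.75) and CRTAP, a partner of prolyl hydroxylase, was higher in C2 (0.59).

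Other matrix proteins had 1 of 27 tested genes higher and 6 lower in C1 with the block (all genes 2.96% and 4.07%), and 0 higher and 4 lower in C2 (all genes 1.94% and 2.59%), with 0 called without it. Osteopontin, SPP1, a ligand of ITGAV dimers, had 15.0 and 23.1 CPM in C1, 12.7 and 50.1 CPM in C2, and 52.0 and 154 CPM in WT, and all clone libraries were below both WT libraries. Its blocked log2 difference was -2.23 in C1 (adjusted p 0.00713) and -1.79 in C2 (adjusted p 0.0212). The matrilin MATN2 (-2.12 and -1.76), thrombospondin 1, THBS1 (-1.49 and -1.21), and the proteoglycan VCAN (-1.30 and -0.99) were lower in both clones, and FBLN1 (-1.80) was called in C1.

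Matrix receptors other than integrins had 3 of 16 tested genes higher and 2 lower in C1 with the block, and 0 higher and 1 lower in C2, with 0 called without it, to be read against the same shares of all genes (2.96% and 4.07% in C1, 1.94% and 2.59% in C2). MRC2, the receptor that takes up collagen fragments, had 4.69 and 11.1 CPM in C1, 5.23 and 15.9 CPM in C2, and 65.6 and 88.8 CPM in WT, where no clone library came near the WT range. Its blocked log2 difference was -3.43 in C1 (SE 0.27, adjusted p 0.000103) and -3.05 in C2 (SE 0.27, adjusted p 0.000264). The collagen receptor kinase DDR1 (0.65) and the syndecan SDC2 (0.64) were higher and the sarcoglycan SGCB (-0.76) was lower in C1. Adaptors that tie integrins to the cytoskeleton had 1 of 29 higher and 3 lower in each clone with the block, and 0 called without it, where the 1 higher is close to the share of all genes (2.96% in C1 and 1.94% in C2). Filamin A, FLNA, had 996 and 810.1 CPM in C1, 1036 and 849 CPM in C2, and 1632 and 1317 CPM in WT, with blocked log2 differences of -0.71 and -0.65 (adjusted p 0.00743 and 0.017). Vinculin, VCL, was higher in both clones (0.57 and 0.73), the plakin PLEC lower in C1 (-0.87), and SLC3A2, a heavy chain that binds integrin beta tails, lower in C2 (-0.98). MRC2 and FLNA, like COL5A1 and COL4A4, had all 4 clone libraries below both WT libraries, as did 11.9% of all genes tested.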

How the data were processed

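Per the submitters' processing notes, reads were handled with cutadapt 1.6, STAR 2.5.0a and HTSeq 0.5.3 on hg19; the annotation release and strand setting are not given in the sources used here. The deposited table holds raw counts per gene, not normalized, as whole numbers in 1 column per library, per the file headers. Of the listed reads, 77.57% to 78.67% lay in genes, and the 5 HTSeq totals were left out. Group and replicate number came from the sample titles. Replicates were not copies, with a chi-square per gene of 127 in C1, 112 in C2 and 98.1 in WT.

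The analysis used edgeR 4.0.16 (R 4.3.3, limma 3.58.1) on genes kept by filterByExpr, which left 17129 genes, 56 of them members. CPM use library sizes scaled by edgeR's TMM factors. The quasi-likelihood F test was fitted to all 6 libraries with 1 mean per group, adjusted by Benjamini-Hochberg over all genes tested, and called at an adjusted p below 0.05. The comparison of replicate numbers adds the number to that fit. Log2 differences are those of edgeR, which draws them slightly toward 0. SEs and intervals (95%) are not edgeR output. The SE is the unshrunk difference over the square root of the F statistic, and the interval is centred on the unshrunk difference. At low counts the interval need not be centred on the printed difference. Differences within 1 replicate number use log2(CPM + 0.1). Intervals carry no adjustment for testing many genes, and floors for 0 counts (3 counts over the group) cover counting error only. DESeq2 1.42.0, other scaling and filters, the replicate block and leaving out each library were tried as alternatives.

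Deviations of same-numbered libraries from their group means correlated across genes by 0.701 (C1 and C2), 0.584 (C1 and WT) and 0.634 (C2 and WT), all above 0.1, and same-numbered libraries were treated as pairs on that ground. No label states the pairing. With 2 libraries a group the deviations are mirror images, so arbitrary numbers could also correlate, and every blocked call assumes that the pairing is real. Replicate numbers separated along principal component 1 (47.6% of the variance), and WT from the clones along component 2 (32.7%).

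Members are all rows that the symbol patterns matched, and those with a mean of at least 0.5 CPM in any group are described. Library values are given for members called in any fit, at most 8 per family and comparison by absolute log2 difference, and for the 3 of each family with the highest level per kilobase. The values of 1 member are not reported here. From each pathway list up to 4 called genes per comparison are named, with a mean log2 CPM of at least 1. Members, pathway lists, the proliferation list and this rule were chosen with earlier results of these data known. Exon lengths, overlaps and gene order came from GENCODE 29, where all 83 members matched by stable ID. Promoter windows came from RefSeq (GRCh38.p14), matched by symbol for 58 of 82 members and 40 of 54 described ones. These are another build than hg19, so only the windows have coordinates.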

Additional observations from a re-analysis of the deposited data

Results flagged for a closer look

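COL15A1, a basement membrane collagen of the same family as COL18A1, was singled out because the clones lay on opposite sides of WT within both replicate numbers. It had 0.424 and 0.301 CPM in C1, 1.12 and 0.464 CPM in C2, and 1.06 and 0.438 CPM in WT. On the log2(CPM + 0.1) scale C1 minus WT was -1.14 and -0.42 in replicates 1 and 2, and C2 minus WT was 0.08 and 0.07. The log2 difference of C2 against C1 was 1.11 (edgeR, adjusted p 1 without the block and 1 with it), so the clones were not shown to differ. Counts were 9 to 33 per library.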

How the results depend on the processing

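Calls of members against WT depended on how the replicate number was treated. With the replicate block, 10 were called in C1, 7 in C2 and 12 for the mean of the clones, against 0 without it, and DESeq2 with the block, added after the data were seen, called 11, 9 and 11. DESeq2 without it called 3 in C1 (COL5A1, COL4A3 and COL4A4), 1 in C2 (COL5A1) and 5 for the mean, and edgeR with no filter on low counts called 5, 2 and 5. Other scaling, a stricter filter and fits of 2 groups alone called 0. Shares of all genes called are not given for these alternatives or the fits below, so their counts describe the members only. Leaving out 1 library gave 0 without the block and, with it, 2 to 17 in C1, 0 to 13 in C2, 2 to 20 for the mean (16 without C1 replicate 1 and 14 without WT replicate 1) and 0 to 2 for C2 against C1. The blocked counts were lowest without C2 replicate 1 or C2 replicate 2, also in C1 against WT, which does not contain C2. COL5A1 and COL8A1 kept their blocked calls in C1 and for the mean without each of the 6 libraries, while the other 8 blocked calls in C1 were lost without either C2 library (adjusted p 0.0526 to 0.131), with values of the same sign. The 21 members called between replicate numbers became 2 to 25 without 1 library. Over 50 single-gene results, 741 alternatives gave 508 values on the same side of the threshold, 182 newly past it, 51 no longer past it and 0 of the opposite sign. The number described at 1 CPM was 22 collagens, 10 laminins and 18 integrins. Depth limits COL5A1, COL3A1, COL4A3 and COL4A4, with at most 23 counts in any clone library, and 2 libraries per group limit every comparison.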
